A study of Homo sapiens with 4 samples.

Results

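The nuclear-encoded subunits of the respiratory chain were examined in HCC cells kept at low and high glucose. The members are the 80 genes of the 59652 in the count table whose symbols name a subunit of complexes I to V, and symbols ending in P plus digits, which mark pseudogenes, were left out. Complex I has 37 members (NDUFA, NDUFB, NDUFC, NDUFS and NDUFV genes), complex II 4 (SDHA to SDHD), complex III 9 (UQCR genes and CYC1), complex IV 12 (COX genes) and complex V 18 (ATP5 genes). The rule uses the symbols alone. Huh7 and PLC cells are wild-type human hepatocellular carcinoma lines. They were kept for 48 h in DMEM without glucose and with 10% FBS, to which 5 mM (low) or 25 mM (high) glucose was added, and their RNA was then sequenced. All 4 cultures shared the medium, the serum, TRIzol extraction, removal of rRNA and a directional library kit. A single library was made from every culture. No difference between the concentrations within a line therefore has a replicate check, and the lines, which are different cells, are not replicate cultures of each other.

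The respiratory chain sits in the inner mitochondrial membrane. Complexes I and II pass electrons from NADH and succinate to ubiquinone, complex III passes them on to cytochrome c, complex IV hands them to oxygen, and complex V, the ATP synthase, uses the proton gradient built on the way to make ATP. Most subunits are encoded in the nucleus and a few in mitochondrial DNA, so both genomes supply the same enzymes. Hepatocytes are rich in mitochondria, while many tumours draw more of their ATP from glycolysis, and the supply of glucose is one of the conditions under which the balance is studied.

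The promoters of many of these genes are known to be bound by NRF1, GABP and YY1. RefSeq promoter windows of GRCh38.p14, each with 250 bases before and 50 bases after a start site, were found for 63 of the 80 members and for 15342 protein-coding genes in all. The NRF1 core GCGCATGC, on either strand, was in 13 member windows (20.6%) and in 4.38% of all windows. The GABP core CCGGAAG was in 21 (33.3%) against 14.8%, and the YY1 core AAGATGGC was in 12 (19.0%) against 4.15%. At least 1 of the cores was in 37 member windows (58.7%) and in 21.2% of all windows. A YY1 match lay wholly before the start site in 1 of the 12 members. No GABP match shared its closing AAG with the start of a YY1 match, on either strand, and other overlaps were not searched. Complex I had 31 of the 63 member windows, and 6 of the 13 NRF1 matches, 5 of the 21 GABP matches and 7 of the 12 YY1 matches were in genes of complex I. A match is a description of letters and does not show binding. SDHD and COX5B, subunits of complexes II and IV, are shown because they held 2 kinds of core in the 150 bases before the start site. Both lines run 5′ to 3′ on the plus strand, at chr11:112086723-112086872 and chr2:97645912-97646061, and capitals mark the cores or their reverse complements. The first run of capitals in SDHD is a pair of overlapping NRF1 matches, 1 on each strand.
SDHD: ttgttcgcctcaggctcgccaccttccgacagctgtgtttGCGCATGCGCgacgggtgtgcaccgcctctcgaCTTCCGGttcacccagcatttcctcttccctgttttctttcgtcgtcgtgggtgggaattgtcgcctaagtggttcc
COX5B: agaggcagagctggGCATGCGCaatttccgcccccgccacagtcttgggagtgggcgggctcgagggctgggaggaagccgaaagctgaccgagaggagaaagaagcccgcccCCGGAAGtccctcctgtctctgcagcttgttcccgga

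The libraries held between 16049686 and 30279716 reads counted on genes, with the lowest total in PLC cells at 25 mM and the highest in PLC cells at 5 mM. Of 12 hepatocyte markers 11 were over 0.5 FPKM in all 4 libraries. The exception, TTR, had 4 and 0 reads in the PLC libraries. The summed level of these markers was 5557 and 5756 FPKM in Huh7 cells at 5 and 25 mM and 1147 and 2055 FPKM in PLC cells, where AFP, the fetal serum protein, stood at 306 and 1011 FPKM. Of 9 markers of leukocytes, endothelium, fibroblasts and squamous epithelium, 1 (LYZ) was over 0.5 FPKM in all libraries, and CD3E was at 0. Their sum was 36.0 and 38.0 FPKM in Huh7 cells and 3.73 and 11.2 FPKM in PLC cells, and their part in the results was not tested. All 37 mitochondrially encoded genes were listed at 0 reads in every library, so the subunits made in the organelle could not be set beside the nuclear ones.

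Levels are given as FPKM, reads scaled by the length of the gene and the total of the library. In every library at least 78 of the 80 members were over 0.5 FPKM, and the members together took 0.605% and 0.615% of the reads in Huh7 cells at 5 and 25 mM and 0.595% and 0.672% in PLC cells. Complex IV had the highest median level among the complexes (46.2 FPKM on the mean of the 4 libraries), before complex V (23.2), complex II (21.8), complex III (21.3) and complex I (16.2). The lengths in the table merge all exons of all isoforms. With the length of the canonical GENCODE 44 transcript instead, complex IV was again first (88.7 FPKM) and complex III last (32.8), with complexes V, II and I at 63.0, 48.4 and 40.4. The order of the complexes other than IV therefore depends on the gene model. ATP5F1B, the catalytic beta subunit of ATP synthase, had the highest level of all members on both lengths. It stood at 387 and 386 FPKM in Huh7 cells at 5 and 25 mM and at 319 and 285 FPKM in PLC cells. On the lengths of the table the highest in complex I was NDUFA1 (mean 91.8 FPKM), in complex II SDHC (30.2), in complex III UQCRH (92.5) and in complex IV COX5A (89.3). On canonical lengths SDHC and UQCRH were again highest (85.6 and 231), while NDUFS8 (153) led complex I and COX6B1 (249) complex IV.

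**Figure D1:**
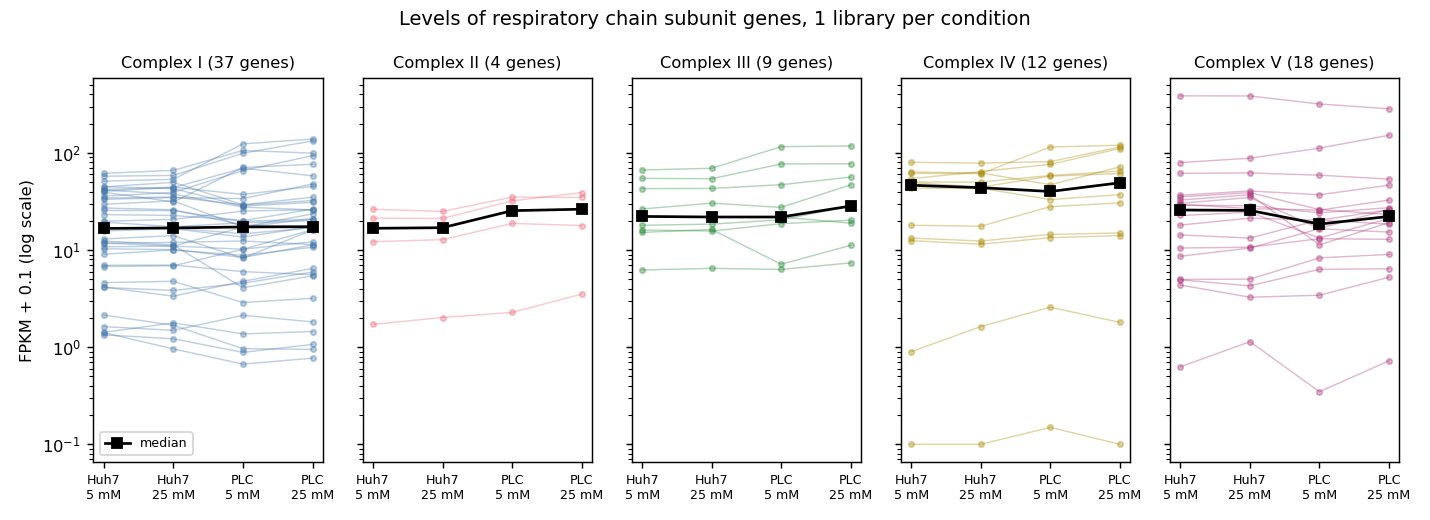
Level of each of the 80 members in the 4 libraries (1 library per condition), as FPKM with 0.1 added on a log axis, in 1 panel per complex. Coloured lines join the 4 values of a gene and black squares are the medians over the members of the complex. The medians lay between 16.6 and 49.2 FPKM in all panels, the highest gene of all is ATP5F1B in complex V, and the lowest is COX4I2 in complex IV.

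The lowest members were NDUFA7 in complex I (mean 0.853 FPKM), SDHA in complex II (2.28), UQCRB in complex III (6.50), COX4I2 in complex IV (0.0123) and the like gene ATP5MGL in complex V (0.610). Exons of 41 members overlap those of other genes. For 18 members the overlap was over 20% of the exon length, and the median of their mean levels was 7.47 FPKM, against 32.8 FPKM for the 39 members with no overlap. NDUFA7 (32.5% overlapped) and SDHA (21.6%, with 3 pseudogenes that together took between 348 and 1004 reads per library) are among the 18. How the counting treated strand and shared reads is not given in the sources used here, so the part of overlap in these low levels was not tested. Tissue isoforms stood far apart. COX4I2, the isoform known from lung and from low oxygen, had 0 reads in 3 libraries and 1 read in PLC cells at 5 mM, while COX4I1 stood at 43.3 and 43.2 FPKM in Huh7 cells and 33.0 and 37.1 FPKM in PLC cells. The floor of 3 reads stands for between 0.0991 and 0.187 CPM, so COX4I2 was not detectable at this depth. COX7A1, the heart and muscle isoform, had a mean of 1.63 FPKM, and its ubiquitous counterpart COX7A2 had 50.1 FPKM in Huh7 cells and 58.5 FPKM in PLC cells at 5 mM.

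The question of the glucose comparison is which subunit genes differ in RNA level between low and high glucose. The ratio of FPKM at 25 mM to FPKM at 5 mM was taken within a line with 0.1 added to both, and a gene was called where FPKM was over 0.5 in at least 1 of the 2 libraries and the ratio was over 1.5 or under 0.67. In Huh7 cells the members differed little between the concentrations. Of 79 members past the FPKM filter, 2 had a ratio over 1.5 and 0 had one under 0.67, while 14.1% of the 21864 genes past the filter were over 1.5 and 13.7% under 0.67. The median log2 ratio of the members was 0.01, against 0.04 over all genes. Both called members had few reads. COX7A1 had 10 reads at 5 mM and 27 at 25 mM, and ATP5MGL had 9 and 25. Their ratios of 1.82 and 1.82 had exact binomial (Clopper-Pearson) 95% intervals of 0.900 to 4.44 and 0.891 to 4.81, which both cover 1. Such intervals, here and below, are for the ratio without the added 0.1 and cover counting error only. Among the 73 members with at least 100 reads in all 4 libraries, 0 passed either threshold in Huh7 cells, where 3.27% and 3.49% of all 9779 genes with as many reads did.

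In PLC cells the members leaned upward at high glucose, as did all genes. The ratio was over 1.5 for 11 of 79 members (13.9%) and under 0.67 for 0, where 26.2% of 21749 genes were over 1.5 and 17.0% under 0.67. The median log2 ratio was 0.18, against 0.11 over all genes and 0.06 over the genes with at least 100 reads in every library. Of the members 61 were above a ratio of 1 and 18 below. Scaling by edgeR's TMM factors, which set the bulk of the genes equal, lowers every log2 ratio by 0.12 in PLC cells and by 0.04 in Huh7 cells. With it 49 members were above 1 and 30 below in PLC cells (median 0.06), and 32 above and 47 below in Huh7 cells (median -0.03), where 43 and 36 had been above and below without it. Members past the thresholds in PLC cells numbered 5 with TMM scaling, with NDUFC1, UQCRFS1, ATP5F1D and ATP5MGL higher and COX7A1 lower. The share of all genes past the thresholds with that scaling is not given here. Without that scaling the share past 1.5 was smaller among the members than among all genes. So it was at 100 reads or more in every library (12.3% of 73 members and 16.0% of 9779 genes). There 0 members and 9.24% of the genes were under 0.67.

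The counting interval of the ratio excluded 1 upward for 17 members and downward for 6 in Huh7 cells. It did so for 25.0% and 19.4% of all genes. With TMM scaling 12 of 79 members were upward and 15 downward, beside 4642 and 4853 of 21864 genes. In PLC cells the interval lay above 1 for 43 members (54.4%) and below 1 for 10 (12.7%), against 33.2% and 22.7% of all genes. With TMM scaling it did so for 35 and 18 members, beside 5850 and 6266 of 21749 genes. A deeper gene has a narrower interval. Among genes of 100 reads or more in all 4 libraries the shares in PLC cells were 57.5% upward for the members and 43.3% for all genes, and 46.6% and 34.0% with TMM scaling. Downward they were 13.7% and 34.1%, and 24.7% and 44.0% with TMM scaling. Low intervals in PLC cells thus took a smaller share of the members than of all genes at this depth, under both scalings.

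**Figure D2:**
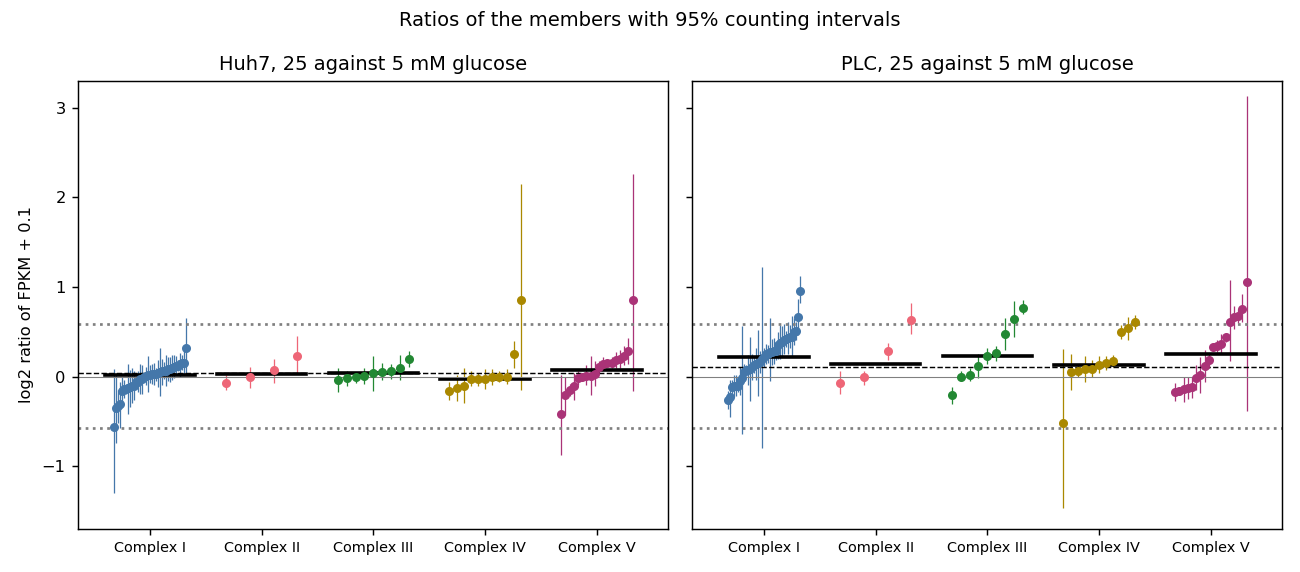
log2 ratio of FPKM + 0.1 at 25 over 5 mM glucose for the members (1 point per gene, COX4I2 left out) in Huh7 cells (left) and PLC cells (right), by complex. Bars are 95% counting intervals, thick black lines the medians of the complexes, the dashed line the median of all genes past the FPKM filter (0.04 and 0.11), and dotted lines the ratios 1.5 and 0.67. Most points of Huh7 cells lie close to 0. In PLC cells the median of every complex lies above 0, with 2 of 4 points of complex II and 6 of 18 of complex V below 0.

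Complex I oxidises NADH. Its median log2 ratio was 0.02 in Huh7 cells and 0.22 in PLC cells, or 0.10 with TMM scaling, and in PLC cells the ratio was above 1 for 29 of the 37 genes and below 1 for 8. NDUFC1, a small accessory subunit of the membrane arm, had the highest ratio. It had 740 reads (8.16 FPKM) in PLC cells at 5 mM and 769 (16.0 FPKM) at 25 mM, the second from a library with fewer reads in all, while Huh7 cells gave 12.9 and 14.0 FPKM. The PLC ratio was 1.95 (95% interval 1.77 to 2.17) and the Huh7 ratio 1.08 (0.992 to 1.18). Of the exon length of NDUFC1, on chromosome 4 from 139266880 to 139302551, 29.6% is shared with MGARP and NAA15. NDUFA2 was the other complex I gene past 1.5 in PLC cells, with 10.1 and 16.1 FPKM and a ratio of 1.58 (1.38 to 1.82), beside 10.7 and 10.9 FPKM in Huh7 cells. The lowest PLC ratio was that of NDUFA6 (69.5 and 58.1 FPKM, ratio 0.836, 0.781 to 0.893). In Huh7 cells the ends of the range were NDUFA11 (log2 ratio 0.32) and NDUFA7 (log2 ratio -0.56, a ratio of 0.680, from 39 and 36 reads).

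The symbol groups of complex I are given side by side for PLC cells. All 11 NDUFB genes, which encode subunits of the membrane arm, were above 1 (9 of 11 with TMM scaling), with a median log2 ratio of 0.27, whereas 7 of 13 NDUFA genes were above 1 (6 with TMM scaling), with a median of 0.08. The median over all genes was 0.11, and no share of all genes above 1 is given here. The counting intervals of NDUFB6 (0.934 to 1.18), NDUFB7 (0.977 to 1.19) and NDUFB8 (0.858 to 1.43) covered 1, and those of the other NDUFB genes lay above it. Of 8 NDUFS genes 7 were above 1 (5 with TMM scaling, median 0.28), and of 3 NDUFV genes 2 (2, median 0.25). NDUFV1, the subunit that holds the flavin where NADH is oxidised, was lower at 25 mM in both lines, with 41.4 and 37.6 FPKM in Huh7 cells (ratio 0.909, 0.873 to 0.945) and 27.6 and 25.8 FPKM in PLC cells (0.936, 0.887 to 0.986). NDUFA4, counted here by its symbol although its protein is known to sit in complex IV, had ratios of 0.957 and 1.09. No test between these groups was made, since genes are not replicates of a condition.

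Complex II is succinate dehydrogenase, which also belongs to the citric acid cycle. SDHA, the flavoprotein that oxidises succinate, stood at 1.62 and 1.92 FPKM in Huh7 cells at 5 and 25 mM and at 2.18 and 3.42 FPKM in PLC cells. Its ratios were 1.17 (1.02 to 1.37) and 1.54 (1.39 to 1.77), the latter past 1.5. SDHB, which holds the iron-sulfur clusters, was level in Huh7 cells (21.2 and 21.1 FPKM) and stood at 32.0 and 39.0 FPKM in PLC cells, a ratio of 1.22 (1.14 to 1.30). The membrane anchors SDHC and SDHD had PLC ratios of 0.990 (0.938 to 1.04) and 0.953 (0.874 to 1.04) and Huh7 ratios of 0.952 and 1.05, all with intervals that cover 1. With TMM scaling the PLC intervals of both (0.863 to 0.960 and 0.804 to 0.955) and the Huh7 interval of SDHC (0.875 to 0.981) lay below 1. The median of the complex in PLC cells was 0.13, or 0.01 with TMM scaling.

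Complex III had medians of 0.04 and 0.23. UQCRFS1, the Rieske iron-sulfur protein, stood at 26.4 and 30.3 FPKM in Huh7 cells and at 27.4 and 46.9 FPKM in PLC cells. Its ratio was above 1 in both lines, 1.15 (1.08 to 1.22) and 1.71 (1.62 to 1.81), and it was the highest of the complex in each. No other gene overlaps its exons on chromosome 19 from 29205320 to 29213151. UQCR11, a small subunit, was past 1.5 in PLC cells (7.05 and 11.1 FPKM, ratio 1.56, 1.36 to 1.80) and stood at 15.1 and 16.2 FPKM in Huh7 cells. The large core proteins were different from these. UQCRC1 was level in PLC cells (77.0 and 77.2 FPKM, with an interval of 0.964 to 1.04), and UQCRC2 had the lowest ratio of the complex (21.8 and 18.8 FPKM, 0.866, 0.811 to 0.922). With TMM scaling the PLC interval of UQCRC1 (0.887 to 0.958) lay below 1. In Huh7 cells the lowest was UQCRQ (0.973). Within the 5 members with no exon overlap the PLC median was 0.02.

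In complex IV 9 of 11 expressed members were below 1 in Huh7 cells (median -0.03) and 10 of 11 above 1 in PLC cells (median 0.13), where the split was 6 to 5 with TMM scaling. In Huh7 cells the counting interval lay below 1 for 1 of them and above 1 for 1. In PLC cells it lay above 1 for 6 (3 with TMM scaling) and below 1 for 0. COX7C, a small structural subunit, stood at 63.5 and 62.1 FPKM in Huh7 cells and at 47.0 and 71.7 FPKM in PLC cells, with a PLC ratio of 1.52 (1.44 to 1.61). COX8A and COX6B1 followed in PLC cells with ratios of 1.46 (1.33 to 1.59) and 1.41 (1.34 to 1.49). COX8A, another small subunit of the membrane part, also had the highest ratio of the complex in Huh7 cells among members with at least 20 reads (1.19, 1.07 to 1.32), and the lowest there was COX5B (0.897, 0.837 to 0.960). COX6A1 had the lowest ratio in PLC cells among members with as many reads (1.04). COX7A1 pointed up in Huh7 cells and down in PLC cells (44 and 16 reads, ratio 0.698), with intervals that cover 1 in both. For COX4I2 no ratio is given.

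Complex V had the highest median in each line (0.07 and 0.25) and the widest spread in PLC cells, with 9 intervals above 1 and 5 below. In its catalytic head, ATP5F1D, the delta subunit of the central stalk, stood at 32.6 and 37.0 FPKM in Huh7 cells and at 11.2 and 19.1 FPKM in PLC cells, with ratios of 1.14 (1.07 to 1.21) and 1.69 (1.53 to 1.89). ATP5F1A and ATP5F1C, the alpha and gamma subunits, had PLC ratios with intervals of 1.22 to 1.29 and 1.31 to 1.40, while the beta subunit ATP5F1B was lower at 25 mM with a ratio of 0.894 (0.873 to 0.915). These genes encode parts of 1 assembly, and their ratios in PLC cells lay on both sides of 1. In Huh7 cells ATP5F1B was level (0.996, 0.978 to 1.02), though with TMM scaling its interval (0.952 to 0.988) lay below 1.

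In the membrane part, ATP5MC3, 1 of 3 genes that encode the same mature subunit c of the rotating ring, stood at 13.2 and 21.1 FPKM in PLC cells (ratio 1.60, 1.51 to 1.69) and at 22.6 and 24.4 FPKM in Huh7 cells (1.08, 1.03 to 1.13). ATP5MC1 and ATP5MC2 had PLC ratios of 1.28 and 1.13, and the 3 genes together gave 69.5 and 74.2 FPKM in Huh7 cells and 57.4 and 74.2 FPKM in PLC cells. On canonical lengths these sums were 311 and 326 FPKM in Huh7 cells and 265 and 328 FPKM in PLC cells, so their size depends on the gene model. ATP5MF, subunit f, was past 1.5 in PLC cells (16.6 and 26.2 FPKM, 1.57, 1.44 to 1.73). ATP5ME, subunit e, was past it too, from 94 and 77 reads (1.53, 1.13 to 2.11), while in Huh7 cells it had the lowest ratio of the complex (0.750, 0.546 to 1.01, from 85 and 89 reads). Its exons are overlapped by MYL5 over 61.3% of their length. In the peripheral stalk, ATP5PB, subunit b, had the lowest PLC ratio of the complex (26.0 and 23.1 FPKM, 0.887, 0.826 to 0.951), and ATP5PF one of 0.907, while ATP5PD (0.988, 0.898 to 1.09) and ATP5PO (1.01, 0.880 to 1.16), also of the stalk, had intervals that cover 1. With TMM scaling the PLC interval of ATP5PD (0.826 to 0.999) lay just below 1. The highest Huh7 ratio among members with at least 20 reads was that of ATP5MPL (1.21, 1.10 to 1.35). The like gene ATP5MGL was over 1.5 in both lines, from 9 and 25 reads in Huh7 cells and from 6 and 8 reads in PLC cells, with intervals that cover 1.

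**Figure D3:**
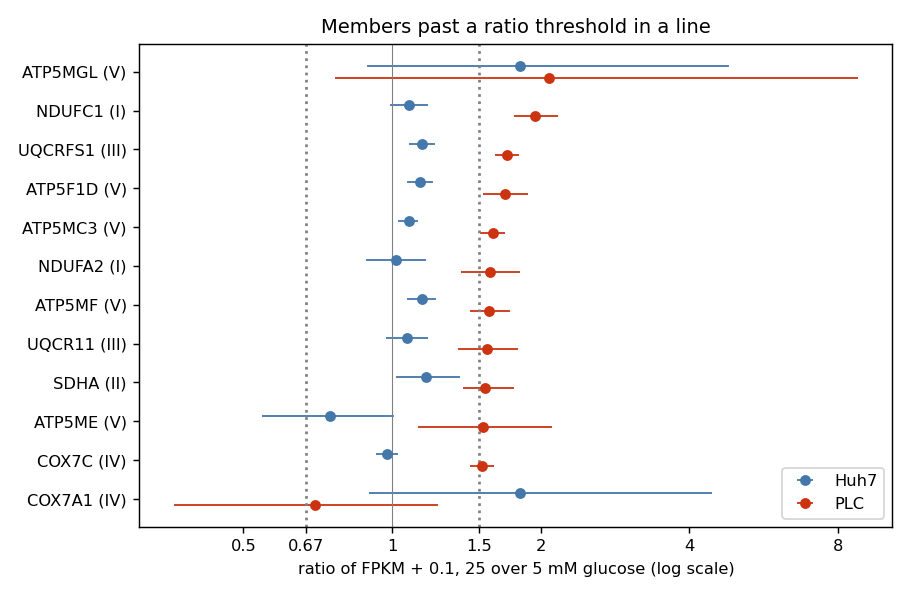
Ratio of FPKM + 0.1 at 25 over 5 mM glucose (log axis) with 95% counting intervals in Huh7 cells (blue) and PLC cells (red) for the 12 members past 1.5 in a line, with the complex in parentheses. Dotted lines mark 0.67 and 1.5. The members were picked by these ratios, so that the PLC intervals to the right of the Huh7 intervals in 10 of them are a description only, and ATP5MGL and COX7A1 rest on fewer than 50 reads per library.

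Members past 1.5 in PLC cells came from all 5 complexes, namely 2 of 37 in complex I, 1 of 4 in complex II, 2 of 9 in complex III, 1 of 11 in complex IV and 5 of 18 in complex V. These are 5.41%, 25.0%, 22.2%, 9.09% and 27.8%, beside 26.2% of all genes past the FPKM filter. The shares of complexes II and V were thus near that of all genes, and the other complexes lay below it. Just inside the threshold were COX7C and ATP5ME (1.52 and 1.53), and just outside were COX8A (1.46) and NDUFB10 and NDUFS6 (1.42 each). Over 76 members, those with 20 or more reads in each of the 4 libraries, the PLC log2 ratio and the Huh7 log2 ratio had a Pearson correlation of 0.20 and a Spearman correlation of 0.24, as a description across genes. The correlation of the PLC ratio with the length of the canonical transcript was -0.16 and with its GC content 0.22 (Pearson), and in Huh7 cells they were 0.08 and 0.02. Members with an NRF1, GABP or YY1 core in the promoter window had median PLC log2 ratios of 0.18, 0.12 and 0.08, and the 26 with no core had one of 0.31. A gene with more than 1 core counts under each.

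To ask for a change with glucose that both lines have in common, the counts were fitted with edgeR (quasi-likelihood F-test), and line and glucose were terms of the model. With 4 libraries this leaves 1 residual degree of freedom. Of the 79 members tested, 0 had a Benjamini-Hochberg adjusted p under 0.05 and 0 had an unadjusted p under 0.05. Among all 23217 genes tested, 0.0646% were called higher and 0.314% lower at 25 mM, and 1975 had an unadjusted p under 0.05. DESeq2 and limma-voom also called 0 members. The lowest p was that of UQCRFS1, with a log2 fold change of 0.41 (SE 0.23, edgeR adjusted p = 0.727), and the next that of NDUFC1, with 0.46 (SE 0.27, adjusted p = 0.743). The median over the members was 0.02, with a median SE of 0.24, so that a shared difference of the size seen in Huh7 cells lay within the error of the fit.

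More members were called between the lines than with glucose, and the same held for all genes tested. In the same fit, Huh7 over PLC with glucose as a block, 22 of 79 members had an adjusted p under 0.05. Higher in Huh7 cells were 8 of the 79 members, against 21.8% of all genes tested, and higher in PLC cells 14 of the 79, against 21.1%. In each direction the share was smaller among the members than among all genes. The median log2 fold change was -0.21 for the members and 0.03 for all genes. As these are different cell lines with 1 library per condition, the p-values rest on the spread within the fit and not on separate cultures.

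NDUFA1, a small subunit of complex I encoded on the X chromosome from 119871832 to 119876662, was the member highest in PLC cells relative to Huh7 cells. It stood at 51.1 and 53.5 FPKM in Huh7 cells at 5 and 25 mM and at 124 and 139 FPKM in PLC cells, which gave a log2 fold change of -1.33 (SE 0.25, edgeR adjusted p = 0.000762). NDUFB7 followed with -1.08 (39.3 and 31.2 FPKM against 70.8 and 76.3, adjusted p = 0.00516) and NDUFB10 with -1.07 (35.7 and 39.2 FPKM against 65.8 and 93.5, adjusted p = 0.00251). These are accessory subunits of the membrane arm. For each the libraries of the lines did not overlap, which is a description only, since they were picked as the largest called differences. NDUFB11 had a log2 fold change of -0.99 (57.5 and 58.6 FPKM against 99.3 and 133, adjusted p = 0.00348), and COX5A, a nuclear subunit of complex IV, one of -0.94 (61.5 and 61.2 FPKM against 115 and 120, adjusted p = 0.00344). The other members higher in PLC cells were NDUFB1, ATP5MG, UQCRH, ATP5MPL, SDHB, COX7B, NDUFV3, NDUFS5 and ATP5F1C, with log2 fold changes between -0.84 and -0.65.

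NDUFB5, also of the membrane arm, was the member highest in Huh7 cells relative to PLC cells. It stood at 12.3 and 11.2 FPKM in Huh7 cells and at 3.99 and 5.33 FPKM in PLC cells, which gave a log2 fold change of 1.34 (SE 0.25, edgeR adjusted p = 0.000758). ATP5F1D followed with 1.24 (32.6 and 37.0 FPKM against 11.2 and 19.1, adjusted p = 0.00126). NDUFA13 had 1.06 (2.04 and 1.58 FPKM against 0.866 and 0.851, adjusted p = 0.0475) and UQCR11 0.82 (adjusted p = 0.0264). NDUFS8, an iron-sulfur subunit of complex I, had 0.69 (29.5 and 32.0 FPKM against 17.2 and 20.9, adjusted p = 0.0205). The remaining members higher in Huh7 cells were ATP5MF (0.63), NDUFV1 (0.56) and NDUFA4 (0.56, with an adjusted p just under the threshold). Of these 8 calls 3 (NDUFB5, ATP5F1D and NDUFS8) held in all 6 alternatives, against 11 of the 14 calls higher in PLC cells. NDUFA13, UQCR11, ATP5MF and NDUFA4 lost the call with DESeq2 and, like NDUFV1, with no glucose block. Of the calls higher in PLC cells, ATP5MG, ATP5MPL and NDUFS5 lost it with DESeq2.

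**Figure D4:**
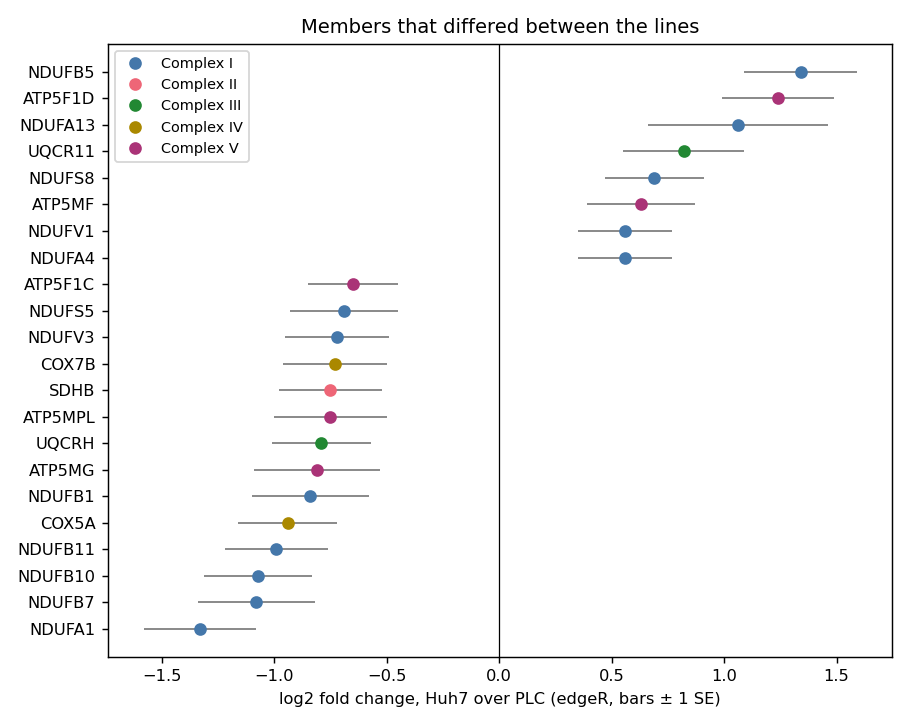
log2 fold change of Huh7 over PLC for the 22 members with an edgeR adjusted p under 0.05, with bars of 1 SE on each side and colours for the complexes. The 14 members to the left of 0 were higher in PLC cells and reach from -1.33 (NDUFA1) to -0.65 (ATP5F1C), and the 8 to the right were higher in Huh7 cells and reach from 0.56 (NDUFV1 and NDUFA4) to 1.34 (NDUFB5).

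By complex, 5 members were higher in Huh7 cells and 7 higher in PLC cells in complex I, 0 and 1 in complex II, 1 and 1 in complex III, 0 and 2 in complex IV and 2 and 3 in complex V. Complexes I, III and V each held genes called in opposite directions. In complex III the call higher in Huh7 cells was that of UQCR11, which was lost with DESeq2 and with no glucose block. All 4 genes of complex II had a negative log2 fold change, with SDHB called (-0.75, SE 0.23, edgeR adjusted p = 0.0189) and SDHA, SDHC and SDHD at -0.64, -0.45 and -0.56 (adjusted p = 0.0856, 0.111 and 0.0801). The 3 members on the X chromosome (NDUFA1, NDUFB11 and COX7B), a grouping chosen after their values were seen, were all higher in PLC cells, with a median log2 fold change of -0.99. Over all 729 X-linked genes tested the median was -0.93, so these members lay near the level of their chromosome.

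The other genes of the pathway were described in the same way, from lists of symbols, and the ends of a list are given among genes with at least 100 reads in both libraries of the line. Of 54 assembly factors, which put the complexes together, the median log2 ratio was -0.02 (Huh7) and 0.08 (PLC), and 0 passed a threshold in Huh7 cells. In PLC cells 5 were past the upper threshold and 2 past the lower one, or 1 and 3 with TMM scaling. Beside these lists stand the shares of all genes given above, 26.2% over 1.5 and 17.0% under 0.67 in PLC cells and 14.1% and 13.7% in Huh7 cells. They are without TMM scaling, and no share of all genes with it is given here. Highest and lowest in PLC cells were COX18 (ratio 1.81), which inserts a complex IV subunit into the membrane, and NDUFAF4 (23.3 and 12.2 FPKM, ratio 0.526). In Huh7 cells they were SDHAF2 (1.31) and COA8 (0.702). Of 75 mitochondrial ribosomal proteins, which translate the mitochondrially encoded subunits, 0 passed a threshold in Huh7 cells (median 0.05, from MRPL24 at 0.725 to MRPL46 at 1.34). In PLC cells 12 were over 1.5 and 5 under 0.67 (median 0.20, from MRPS10 at 0.559 to MRPL39 at 1.80), or 7 and 6 with TMM scaling. Of 13 enzymes of the citric acid cycle 0 passed a threshold in either line, with medians of 0.02 and -0.06. Citrate synthase (CS) had the highest ratio in Huh7 cells (1.14) and the lowest in PLC cells (0.765), while SUCLG2 was lowest in Huh7 cells (0.825) and OGDH highest in PLC cells (1.27).

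Among 17 regulators, PPARGC1A, the coactivator known to raise transcription of mitochondrial genes, was the only gene past a threshold in Huh7 cells. It had 287 reads (1.24 FPKM) at 5 mM and 162 (0.495 FPKM) at 25 mM, a ratio of 0.446 (0.329 to 0.488 without the added 0.1), and in PLC cells 2.96 and 2.58 FPKM (0.876, 0.778 to 0.976). Its shared log2 fold change was -0.82 (SE 0.32, edgeR adjusted p = 0.449), and it was higher in PLC cells than in Huh7 cells (-1.81, adjusted p = 0.000561). GABPA, the DNA-binding part of GABP, was past 1.5 in PLC cells (8.25 and 12.6 FPKM, 1.52, 1.41 to 1.65) but not with TMM scaling (1.40). GABPB1, also in the list, pointed the other way in PLC cells (6.35 and 4.32 FPKM, 0.686, 0.606 to 0.765) and was under 0.67 with TMM scaling (0.632). PPRC1 was under 0.67 in PLC cells (11.4 and 5.87 FPKM, 0.518). NRF1, TFAM and ESRRA had ratios of 1.02, 1.08 and 0.743 in Huh7 cells, while those in PLC cells were 1.23, 1.17 and 0.877. YY1 had the highest ratio of the list in Huh7 cells (1.24, 1.18 to 1.30) and one of 0.956 (0.909 to 1.01) in PLC cells. The medians of the list were 0.04 and -0.11.

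Of 12 related subunits and carriers outside the 80, 3 were under 0.67 in PLC cells. CYCS, cytochrome c itself, was one of them and stood at 69.2 and 45.4 FPKM (ratio 0.656, 0.633 to 0.679) and at 65.8 and 64.2 FPKM in Huh7 cells. COX7A2L, which is known to tie complexes III and IV together, had the lowest PLC ratio at 100 reads or more (29.2 and 16.2 FPKM, 0.555). NDUFA4L2, the isoform of NDUFA4 known to be raised in low oxygen, was the only listed gene under 0.67 in both lines, from 52 and 30 reads in Huh7 cells (0.471, 0.252 to 0.655) and from 87 and 20 reads in PLC cells (0.484, 0.253 to 0.711). ATP5IF1, the inhibitor of ATP synthase, had the highest ratios of the list (1.08 and 1.37), and HIGD2A had the lowest in Huh7 cells (0.777). None of the genes of these lists had an edgeR adjusted p under 0.05 for a shared change, and 6 had an unadjusted p under 0.05. The lists share the same 4 libraries with the members, so their values stand side by side and are not independent evidence.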

How the data were processed

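RNA of 4 cultures was sequenced by the authors, who extracted it with TRIzol, removed rRNA and built directional libraries. The deposited values are counts of reads per gene with a gene length, and the submitters' processing notes name HISAT2, featureCounts and hg38. Versions, the annotation release and the strand setting are not given in the sources used here. Of 59657 lines, 5 without values in their own columns were left out. FPKM was computed from count, length and library total. Thresholds were those of the study (FPKM over 0.5, ratio over 1.5 or under 0.67). The passing library is not named, and at least 1 of 2 was used here. Counts were tested with edgeR 4.0.16 (filterByExpr, TMM, line and glucose as terms, Benjamini-Hochberg over all genes), and with DESeq2 1.42.0 and limma 3.58.1 as alternatives; the script was tested on simulated data. The members and lists were chosen with earlier results of these data known. Named genes are, per complex, the ends of the level and of each line's ratio (at least 20 reads), all members past a threshold, the 5 largest line differences each way, complex II, the COX4I and COX7A pairs, and the ends of each list (at least 100 reads). Others were named after their values were seen. The split of complex I into core and accessory subunits is not reported here. Depth per library was 21376239, 30085303, 30279716 and 16049686 reads.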

Additional observations from a re-analysis of the deposited data

Results flagged for a closer look

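For 6 members the counting intervals of the ratio of 25 to 5 mM glucose lay on opposite sides of 1 in the lines, which was not tested as a difference, since each ratio compares 1 pair of libraries. For NDUFB5 the ratio was 0.910 in Huh7 and 1.33 in PLC cells, NDUFV2 had 0.806 and 1.36, and ATP5F1E, the epsilon subunit of ATP synthase, had 0.903 and 1.27. In the other direction NDUFA6 had 1.09 and 0.836, ATP5MPL 1.21 and 0.920, and ATP5PB, subunit b, 1.10 and 0.887. These are 7.59% of the members, and 10.2% of 18108 genes past the FPKM filter in both lines had such opposite intervals, or 15.6% of the genes with at least 100 reads in every library (8.22% of the members with as many). With TMM scaling 5 of the 6 remained, without NDUFA6. NDUFV2 and ATP5F1E are among the members whose exons are overlapped by other genes (28.4% and 23.2% of their length). All other tests for samples far from their group need 4 or more samples per group and could not be made.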

How the results depend on the processing

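Alternatives gave 95 values for the counts, medians and levels, of which 73 were classed as the same. A count was the same within 1.5-fold of the main one. A median was the same where it moved by no more than the typical counting error of a ratio. Direction was not part of the rule, so the Huh7 median of the members (0.01, and -0.03 with TMM scaling) is among the 73. Levels on canonical lengths were classed as moved without such a rule. In Huh7 cells 0 members passed the thresholds with 1 FPKM added and 6 with thresholds closer to 1 (3 with TMM scaling, where NDUFA7 at 0.664 joined). In PLC cells the 11 became 5 with TMM or DESeq2 size factors, 7 with 1 FPKM added, 29 with thresholds closer to 1, and 7 relative to the median of genes with 100 reads (this one, the canonical length and the TMM values of the other pathway genes were chosen after the data were seen). No share of all genes is given for these alternatives, so the counts show the effect of the setting alone. The PLC median of the members was 0.05 with DESeq2 size factors. For complexes II, III and IV it was 0.01, 0.11 and 0.01 with TMM scaling and 0.00, 0.09 and 0.00 with DESeq2 size factors, and for complex V it was 0.12 with the latter. Without members whose exons overlap, complex V had 0.18 in Huh7 cells and complex III 0.02 in PLC cells. On canonical lengths the median levels of complexes I to V were 40.4, 48.4, 32.8, 88.7 and 63.0 FPKM. The calls between the lines were 22, and 15 to 26 under the 6 alternatives, with 14 called in all of them. The 0 shared calls stayed 0 in all 6, including the fit with no cell line block. No replicate could be left out, since each condition has 1 library, and the labels carry no replicate numbers for a block; the cell line term of the fit pairs the libraries of a line. Depth limits NDUFA7, COX7A1, ATP5MGL and COX4I2 the most. The cause of these shifts was not tested beyond the scaling itself, which moves every ratio of a line by the same amount.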
